A study of Mus musculus with 14 samples.

Results

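The 9 genes described here are the transcription factors that set up and execute the skeletal muscle program in the limb and their close relatives: Pax3, Pax7, Lbx1, Myf5, Myf6, Myod1, Myog, Msc and Tcf21. They were chosen by name, as the family of myogenic determination factors, from 24454 genes in the count table, and all 9 were present in it. Their reads were followed in all 14 RNA-seq libraries of cells sorted by FACS from forelimb buds of mouse embryos that carry an EGFP reporter inserted into the Sox9 gene. Cells with this EGFP are called S9+ and cells without it S9-, so the gate follows Sox9 transcription and not the lineage of a cell. All 5 populations were sorted as live cells that lacked the surface antigens CD31, CD45, CD11b, Gr1, EpCam and Ter119. At E10.5 these were S9-SCA-1+ cells, which lacked JAG1 (2 libraries, replicates 2 and 3), S9-JAG1+ cells, which lacked SCA-1 (3 libraries), S9-Pαhi cells with high PDGFRα and neither JAG1 nor SCA-1 (3 libraries), and S9+Pαhi osteochondrogenic progenitors (OCPs, 3 libraries). S9+COL2+ chondroblasts (3 libraries) were sorted at E11.5, with the same gate in the labels as OCPs, so population and stage cannot be told apart for them. Each library came from pooled forelimb buds of several embryos.

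Skeletal muscle of the limb comes from the somites. Precursors that express Pax3 leave the somite next to the limb bud, migrate into it with the help of Lbx1 and of the receptor Met, and then switch on the bHLH factors known as myogenic regulatory factors (MRFs). Of these, Myf5 and Myod1 commit cells to the muscle fate, Myog drives differentiation, and Myf6 acts in determination and late differentiation. Pax7 marks later muscle progenitors and satellite cells. Msc (musculin) and Tcf21 (capsulin) are related bHLH factors best known from the muscles of the head, and Tcf21 also from connective tissue progenitors. MRFs bind E boxes, DNA with the letters CANNTG, as dimers with the widely expressed E proteins.

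Positions are given on GRCm38 (mm10). Pax3 (Entrez 18505) spans chr1:78101267-78197136, Pax7 (18509) chr4:139737059-139833530 and Lbx1 (16814) chr19:45232684-45236841, all on the minus strand. Myf5 (17877, chr10:107482908-107486927) and Myf6 (17878, chr10:107492848-107494723) are neighbours, 5920 bases apart and both on the minus strand. Myod1 (17927) lies at chr7:46376474-46379092 and Myog (17928) at chr1:134290004-134292548, both on the plus strand. Msc (17681, chr1:14753344-14756089) and Tcf21 (21412, chr10:22817263-22820143) are on the minus strand. The exons of Msc share 539 bases, or 21.2%, with Gm9947 on the other strand in the GENCODE annotation. Whether the counting used strand was not stated, so Msc reads may include some from Gm9947. The exons of the other 8 members overlapped no other annotated gene.

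RefSeq promoter windows were matched for 4 of the 9 members, and the 250 bases before the start of 3 of them are printed: those of Myog and Pax7, which were called higher in chondroblasts, and of Myf5, which was not. E boxes are in capitals, and each run reads 5′ to 3′ on the strand of the gene, for Myog at chr1:134289754-134290003 (plus), for Myf5 at chr10:107486135-107486384 (minus) and for Pax7 at chr4:139832969-139833218 (minus). The start used for the Myf5 and Pax7 windows lies within the gene spans given above, downstream of their outer end.
Myog: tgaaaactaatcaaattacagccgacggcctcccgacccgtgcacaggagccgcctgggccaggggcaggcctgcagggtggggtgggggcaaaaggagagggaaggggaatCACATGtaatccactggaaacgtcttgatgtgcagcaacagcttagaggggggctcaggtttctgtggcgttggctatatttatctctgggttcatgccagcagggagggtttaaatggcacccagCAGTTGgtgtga
Myf5: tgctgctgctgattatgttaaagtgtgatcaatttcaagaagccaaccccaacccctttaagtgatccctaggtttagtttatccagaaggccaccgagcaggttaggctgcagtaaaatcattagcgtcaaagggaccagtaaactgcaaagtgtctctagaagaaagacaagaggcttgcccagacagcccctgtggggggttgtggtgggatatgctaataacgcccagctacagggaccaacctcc
Pax7: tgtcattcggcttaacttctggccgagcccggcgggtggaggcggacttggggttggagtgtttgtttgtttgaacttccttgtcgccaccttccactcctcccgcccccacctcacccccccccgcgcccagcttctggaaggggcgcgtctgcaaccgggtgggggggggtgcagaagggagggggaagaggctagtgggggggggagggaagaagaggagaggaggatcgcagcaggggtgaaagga
The Myog window held 2 E boxes, CACATG starting 138 bases and CAGTTG starting 12 bases before the start, and 1 copy of TCAGGTT, the MEF3 motif, starting 84 bases before it. None of these motifs was found on either strand in the windows of Myf5, Pax7 and Tcf21. Of all 32817 windows of the same length, 66.2% held an E box and 3.50% the MEF3 letters. These are matches of letters and not measured binding sites.

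Depth ranged from 20316583 to 29162751 counted reads per library (median 25554498). Levels are CPM, counts divided by library totals that were scaled by TMM. Up to 3 reads, which is 0.101 to 0.149 CPM depending on the library, were taken as a level that cannot be told from absence. The surface marker gene of the SCA-1 gate, Ly6a, had 3.23 ± 0.183 CPM (mean ± SD, n = 2) in S9-SCA-1+ cells, and the highest value of the other 12 libraries was 0.406 CPM. Sox9 also followed its gate, with 437 ± 7.03 CPM in OCPs and 536 ± 111 in chondroblasts (n = 3 each) against 11.0 ± 5.12 (n = 2) in S9-SCA-1+ cells. Jag1 was highest in S9-JAG1+ cells (296 ± 67.9 CPM), with 119 ± 17.5 in chondroblasts and 19.7 ± 2.42 in OCPs. Pdgfra was lowest in S9-SCA-1+ cells (34.4 ± 14.7 CPM, against 247 ± 1.12 in S9-JAG1+ cells), although the study sorted both from PDGFRα-positive cells. Col2a1 and Acan, which are not in the gate of the labels, were highest in chondroblasts (1274 to 1885 and 3.43 to 14.9 CPM). One S9-SCA-1+ library stood apart: the summed level of 8 red blood cell genes was 3997.5 CPM in replicate 3 and 139.9 CPM in replicate 2, with 1.55 to 95.2 CPM in the other 12 libraries. The members are given in each library, and all 7 tested were also called higher in S9-SCA-1+ cells without replicate 3.

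In S9-SCA-1+ cells, 8 of the 9 members were read above the floor, and these 2 libraries held most of their reads in the whole series. In sorted pools, fewer cells of a type and less RNA per cell cannot be told apart. Pax3 and Lbx1, the genes of the migrating precursor, were the most abundant members. Pax3 had 12246 reads (428 CPM) in replicate 2 and 13985 (498 CPM) in replicate 3, and Lbx1 had 7512 (263 CPM) and 6544 (233 CPM). Of all reads of these genes in the 14 libraries, 99.4% and 99.2% lay in the S9-SCA-1+ libraries. Pax3, Myf5, Myod1, Myog and Msc had the higher CPM in replicate 3, the library with more red cell reads, and Lbx1, Pax7 and Myf6 in replicate 2.

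The MRFs covered a wide range within the same cells. Myf5 had 1761 and 2115 reads (61.6 and 75.3 CPM) in replicates 2 and 3, Myod1 had 630 and 657 (22.0 and 23.4 CPM), and Myog had 100 and 131 (3.50 and 4.66 CPM). Myf6 had only 13 and 8 reads (0.455 and 0.285 CPM). The commitment factor Myf5 thus gave 71.6% of the reads of the 4 MRFs in S9-SCA-1+ cells (exact 95% interval 70.4 to 72.8%), Myod1 23.8% (22.6 to 24.9%), Myog 4.27% (3.74 to 4.84%) and Myf6 0.388% (0.240 to 0.592%). These intervals cover counting error only, here and for all intervals below.

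Pax7 was much lower than its paralog Pax3, with 192 and 184 reads (6.71 and 6.55 CPM), so that it gave 1.41% (1.27 to 1.56%) of the reads of the pair. Msc, at 1439 and 1498 reads (50.3 and 53.3 CPM), lay between Myf5 and Myod1. Tcf21 was at or under the floor in both libraries, with 2 reads and 0. Compared per length, as CPM per kb of the transcript length in the deposited table, Lbx1 came first (287 ± 24.3, n = 2), followed by Pax3 (119.7 ± 12.7), Myf5 (32.9 ± 4.66), Msc (30.2 ± 1.24), Myod1 (12.3 ± 0.520), Myog (2.76 ± 0.558), Pax7 (1.55 ± 0.0269) and Myf6 (0.296 ± 0.0962). The order of the first 2 depends on the length used: the table gives Lbx1 864 bases, and with the longest GENCODE transcript of 2484 bases Lbx1 had 99.8 ± 8.45 CPM per kb, against 119.9 ± 12.8 for Pax3. Myf5 and Msc overlapped within their SD.

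**Figure D1:**
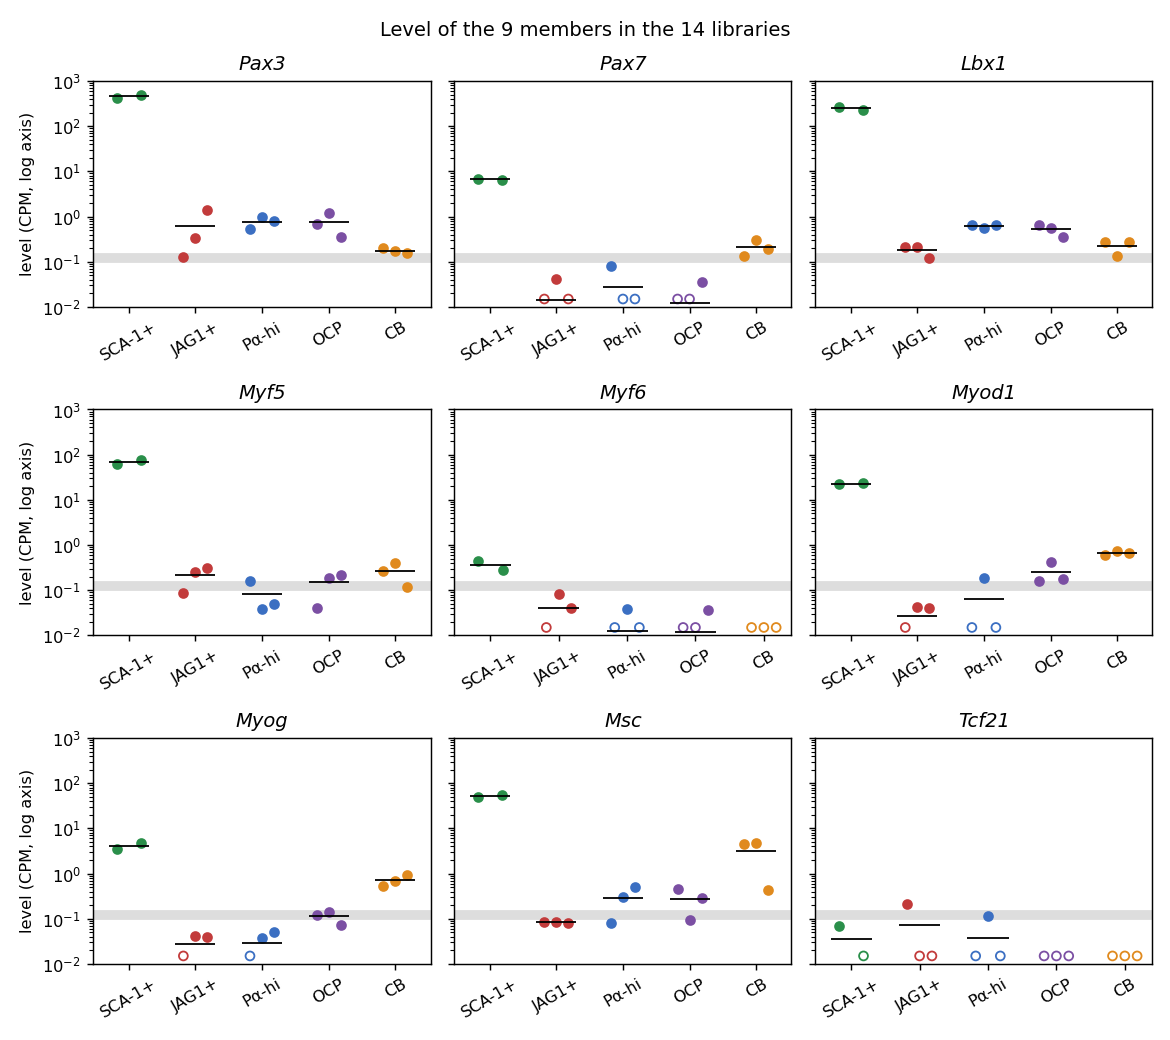
Level of each member (CPM on a log axis, 1 point per library, black line at the population mean) in S9-SCA-1+ cells (SCA-1+), S9-JAG1+ cells (JAG1+), S9-Pαhi cells (Pα-hi), OCPs and chondroblasts (CB). Open points at the bottom are libraries with 0 reads, and the grey band is the level of 3 reads. Both S9-SCA-1+ libraries lie above the other 12 for 8 members, and Tcf21 is close to the band or at 0 throughout.

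Of the members, 7 passed the filter on low counts, and Myf6 and Tcf21 did not. Pax7 and Myf5 passed only because of the S9-SCA-1+ libraries, as without them the filter kept 5 members. All 7 were called higher when S9-SCA-1+ cells were set against the average of the remaining 4 populations. A gene was called, here and throughout, where the adjusted p was 0.1 or less and the log2 fold change 1.2 or more in size. Of all 15125 genes tested, 4.46% were called higher and 6.8% lower in this comparison. The log2 fold change was 7.05 for Msc (standard error 0.39, adjusted p = 6.69e-09), 7.39 for Pax7 (0.36, 1.7e-09) and 7.31 for Myod1 (0.27, 7.68e-11) with edgeR's quasi-likelihood test and Benjamini-Hochberg adjustment over all genes, and it was 5.40 for Myog (0.30, 6.15e-09). Fitted folds of genes with several libraries at 0 depend on the prior count. Without the filter, Myf6 was also called (log2 fold change 4.49, adjusted p = 0.00031, edgeR), and Tcf21 was not (1.24, adjusted p = 0.513, edgeR).

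Outside the S9-SCA-1+ cells the members were rare but not absent. By the joint share of Pax3 and Lbx1, given below, S9-Pαhi cells were close to the proportions of S9-SCA-1+ cells. Chondroblasts were furthest from them. Pax3 and Lbx1 had the most reads of all members in S9-Pαhi cells and OCPs, and Pax3 and Myf5 in S9-JAG1+ cells. Pax3 had 13, 26 and 16 reads in S9-Pαhi cells, 17, 25 and 10 in OCPs, and 3, 8 and 35 in S9-JAG1+ cells. Lbx1 had 16, 15 and 13 reads in S9-Pαhi cells, 16, 12 and 10 in OCPs, and 5, 5 and 3 in S9-JAG1+ cells. Pax3 of S9-JAG1+ replicate 3 (1.39 CPM) was the highest value of Pax3 outside the S9-SCA-1+ libraries, and it came without Lbx1, which had 3 reads there. In chondroblasts Pax3 had 6, 5 and 4 reads (0.157 to 0.202 CPM), the lowest mean of the 5 populations.

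The differentiation factor Myog was instead highest in chondroblasts among the 4 populations without SCA-1+ cells. It had 16, 20 and 24 reads in the chondroblast libraries (0.538, 0.684 and 0.942 CPM), 3, 3 and 2 in OCPs, 0, 1 and 1 in S9-Pαhi cells and 0, 1 and 1 in S9-JAG1+ cells. Myod1 had 18, 22 and 17 reads in chondroblasts (0.605, 0.753 and 0.667 CPM), 4, 9 and 5 in OCPs, 0, 5 and 0 in S9-Pαhi cells and 0, 1 and 1 in S9-JAG1+ cells. For both genes every chondroblast library was above the 9 libraries of the other 3 populations. Pax7 had 4, 9 and 5 reads in chondroblasts and 4 reads in all in those 9 libraries, so it too was separated, although close to the floor.

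Myf5 was not separated in this way. It had 8, 12 and 3 reads in chondroblasts, 1, 4 and 6 in OCPs, 4, 1 and 1 in S9-Pαhi cells, and 2, 6 and 8 in S9-JAG1+ cells, and the ranges of the 4 populations overlapped. Myf6 had 0 reads in the 3 chondroblast libraries and at most 2 in any of the other 9. Tcf21 had 5 reads in S9-JAG1+ replicate 1, its only value above the floor, 3 in S9-Pαhi replicate 2 and 0 in all OCP and chondroblast libraries.

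Against the average of the 3 E10.5 populations without SCA-1+ cells, chondroblasts were called higher for 4 of the 7 members tested and lower for 1, while 10.6% of all genes were called higher and 1.36% lower. Myog rose by 3.86 on the log2 scale (standard error 0.39, adjusted p = 2.45e-06), Myod1 by 3.00 (0.46, 8.59e-05) and Pax7 by 3.28 (0.66, 0.000876), and Msc by 4.06 (0.54, 2.54e-05), all with edgeR's quasi-likelihood test. Pax3 fell by 1.96 (standard error 0.62, adjusted p = 0.0152, edgeR). Lbx1 (log2 fold change -0.77, adjusted p = 0.0517, edgeR) stayed under the limit for the fold change, and Myf5 (0.92, adjusted p = 0.11, edgeR) was not called. Myf5 was called without chondroblast replicate 3 (adjusted p = 0.0495, edgeR) or without S9-Pαhi replicate 1 (adjusted p = 0.056). The difference between chondroblasts and OCPs, the population of the same gate, was called for Myog (log2 fold change 2.66, adjusted p = 0.00111), Msc (3.48, 0.00278), Pax7 (3.56, 0.0142) and Myod1 (1.43, 0.044) upwards and for Pax3 (-1.98, 0.0571) downwards by edgeR, against 6.6% and 1.16% of all genes.

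**Figure D2:**
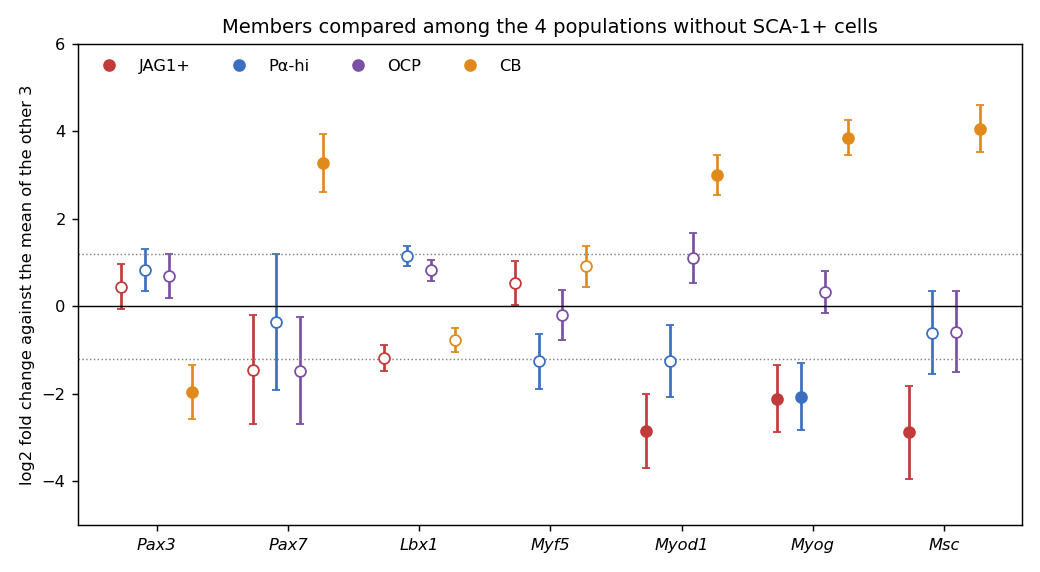
Log2 fold change of each tested member in 1 population against the average of the 3 remaining populations without SCA-1+ cells (edgeR, bars are the standard error). Filled points were called, and dotted lines mark a log2 fold change of 1.2 in each direction. Myog, Myod1, Pax7 and Msc are called higher in chondroblasts (CB) and Pax3 is called lower.

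Each of the other 3 populations was likewise set against the average of the remaining 3 without SCA-1+ cells, an average that includes chondroblasts. In this comparison S9-JAG1+ cells were called lower for Msc (log2 fold change -2.88, adjusted p = 0.0358), Myod1 (-2.85, 0.0132) and Myog (-2.11, 0.0362) by edgeR, 3 of 7 members lower and none higher against 9.26% and 2.83% of all genes. Lbx1 lay just inside the limit for the fold change (-1.19, adjusted p = 0.00554, edgeR) and was called with library totals, with the DESeq2 test and in 5 of 14 fits without 1 library. The Myod1 call was lost without S9-Pαhi replicate 2, which held all 5 reads of that population (adjusted p = 0.942, edgeR), and the Myog call without S9-JAG1+ replicate 1 (adjusted p = 0.15, edgeR). S9-Pαhi cells were called lower for Myog alone (-2.07, adjusted p = 0.0889, edgeR), 1 of 7 lower and none higher against 2.69% and 1.12% of all genes, and this call was lost when either S9-SCA-1+ library or any of 8 others was left out (adjusted p up to 0.299). It was also lost with no filter, with the DESeq2 test and in the 12 libraries without SCA-1+ cells. Lbx1 lay just inside the limit in S9-Pαhi cells (1.15, adjusted p = 0.00456, edgeR) and was called in some fits without 1 library. OCPs were called for no member, with 4.4% of all genes called. In pairs, Lbx1 was higher in S9-Pαhi cells (log2 fold change 1.76, adjusted p = 0.00128, edgeR) and in OCPs (1.51, 0.00245) than in S9-JAG1+ cells, against 4.42% and 9.03% of all genes called higher, and S9-Pαhi cells and OCPs did not differ beyond their spread (-0.25, adjusted p = 0.617, edgeR). Of Msc, Myod1 and Myog, Myod1 alone was called higher in OCPs than in S9-JAG1+ cells (2.96, adjusted p = 0.019, edgeR). None of them was called between S9-Pαhi and S9-JAG1+ cells (adjusted p 0.424 to 0.996, edgeR). The joint test of the 4 populations called 6 of the 7 members, all but Myf5, against 23.5% of all genes, and the Pax3 call (adjusted p = 0.0703, edgeR) was lost without any 1 chondroblast library or without S9-Pαhi replicate 2 or 3 (adjusted p 0.102 to 0.177).

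Set against the S9-SCA-1+ level, the traces in chondroblasts differed between members by more than their counting intervals. Myog stood at 17.4% of its S9-SCA-1+ level (12.9 to 23.3%), Msc at 6.42% (5.66 to 7.26%), Pax7 at 3.21% (1.88 to 5.15%) and Myod1 at 2.97% (2.24 to 3.88%). Myf5 stood at 0.398% (0.252 to 0.599%), Lbx1 at 0.0907% (0.0546 to 0.142%) and Pax3 at 0.0384% (0.0215 to 0.0633%). Leaving out Myf6, which had 1 read there, the range in S9-Pαhi cells was narrower, from 0.123% for Myf5 (0.0451 to 0.268%) to 0.689% for Myog (0.0829 to 2.52%), with Pax3 at 0.167% (0.126 to 0.217%) and Lbx1 at 0.249% (0.181 to 0.334%). OCPs had 0.153% of the S9-SCA-1+ level of Pax3 (0.114 to 0.201%), 1.08% of that of Myod1 (0.638 to 1.71%) and 2.68% of that of Myog (1.14 to 5.36%).

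**Figure D3:**
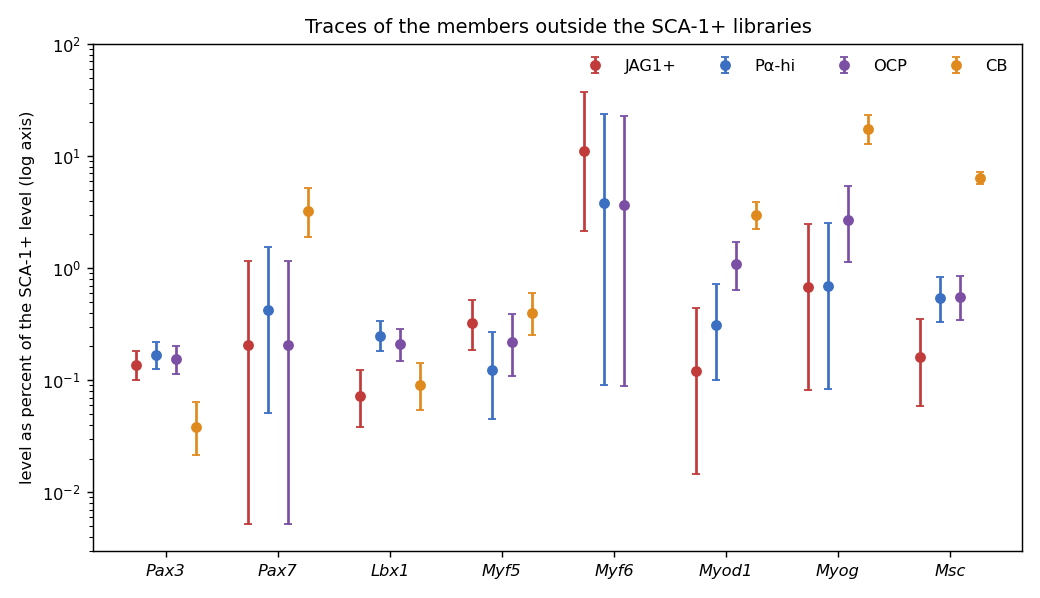
Level of 8 members in the 4 populations without SCA-1+ cells as a percent of the level in S9-SCA-1+ cells (log axis), from pooled reads with exact 95% intervals for counting error. Myf6 in chondroblasts (CB), with 0 reads, has no point. In CB the points run from 0.0384% for Pax3 to 17.4% for Myog.

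The make-up of the myogenic reads showed the same contrast. Among the reads of the 2 Pax genes, Lbx1 and the 4 MRFs, Pax3 and Lbx1 together gave 87.4% in S9-SCA-1+ cells (87.1 to 87.7%), 86.1% in S9-Pαhi cells (78.4 to 91.8%), 71.1% in S9-JAG1+ cells (60.1 to 80.5%), 69.8% in OCPs (61.1 to 77.5%) and 17.7% in chondroblasts (12.6 to 23.9%). The share of the 4 MRFs was 11.8% in S9-SCA-1+ cells and 12.2% in S9-Pαhi cells (6.82 to 19.6%). It was 27.7% in S9-JAG1+ cells (18.4 to 38.6%) and 29.5% in OCPs (21.8 to 38.1%). In chondroblasts it was 72.9% (66.0 to 79.1%), with 70.0%, 75.0% and 73.3% in the 3 libraries. In no other library was it above 41.7%. Within the MRFs, Myog gave 42.9% of the reads in chondroblasts (34.5 to 51.5%) and Myf5 16.4% (10.7 to 23.6%), where Myf5 had given 71.6% in S9-SCA-1+ cells. Pax7 gave 18 of the 33 reads of Pax3 and Pax7 in chondroblasts, or 54.5% (36.4 to 71.9%).

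**Figure D4:**
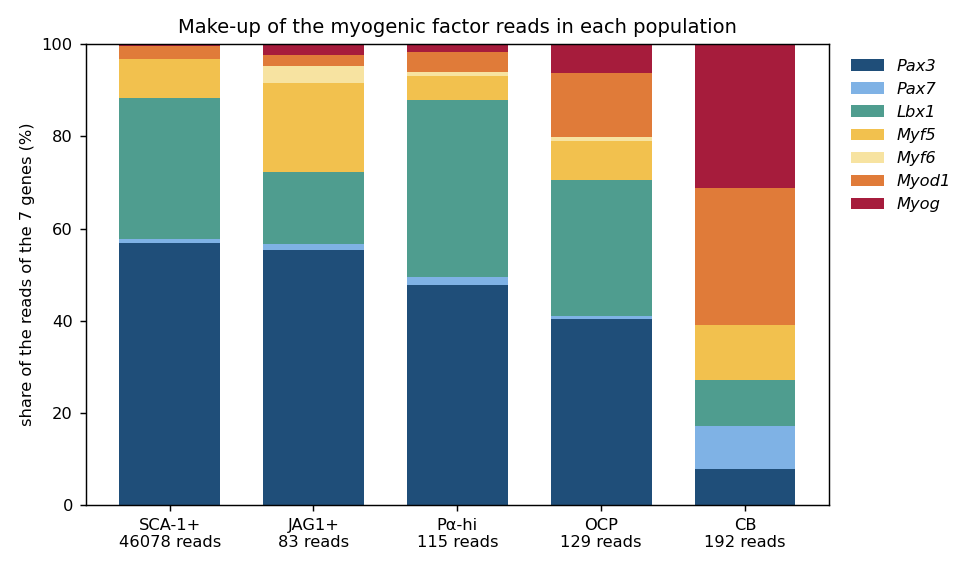
Share of each gene (percent, stacked bars) in the reads of Pax3, Pax7, Lbx1 and the 4 MRFs, summed over the libraries of a population, with the number of reads under each bar. Pax3 and Lbx1 fill most of the bars of the E10.5 populations, and Myod1 and Myog most of the bar of chondroblasts (CB).

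Msc, the member with most reads outside the S9-SCA-1+ libraries, was split among the chondroblast libraries. It had 132 and 138 reads (4.44 and 4.72 CPM) in replicates 1 and 2 and 11 reads (0.432 CPM) in replicate 3. In the other 9 libraries it had 2 to 11 reads (0.0793 to 0.498 CPM), so chondroblast replicate 3 lay within their range. Myod1 and Myog did not follow this split, with 17 and 24 reads in replicate 3. Without replicate 3 the Msc contrast was still called, and over all single libraries left out its log2 fold change ran from 3.66 to 4.53. Meis2 and Irx3, homeobox genes of limb bud patterning that were chosen after their values were seen, were also lowest in replicate 3. Meis2 had 115.0, 86.6 and 15.7 CPM in chondroblast replicates 1, 2 and 3, and Irx3 had 79.7, 50.4 and 5.57 CPM. They did not follow Msc in OCPs, where Meis2 had 229 ± 17.3 CPM, Irx3 224 ± 18.4 CPM and Msc at most 0.446 CPM (n = 3). Their part in the Msc difference was not tested.

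**Figure D5:**
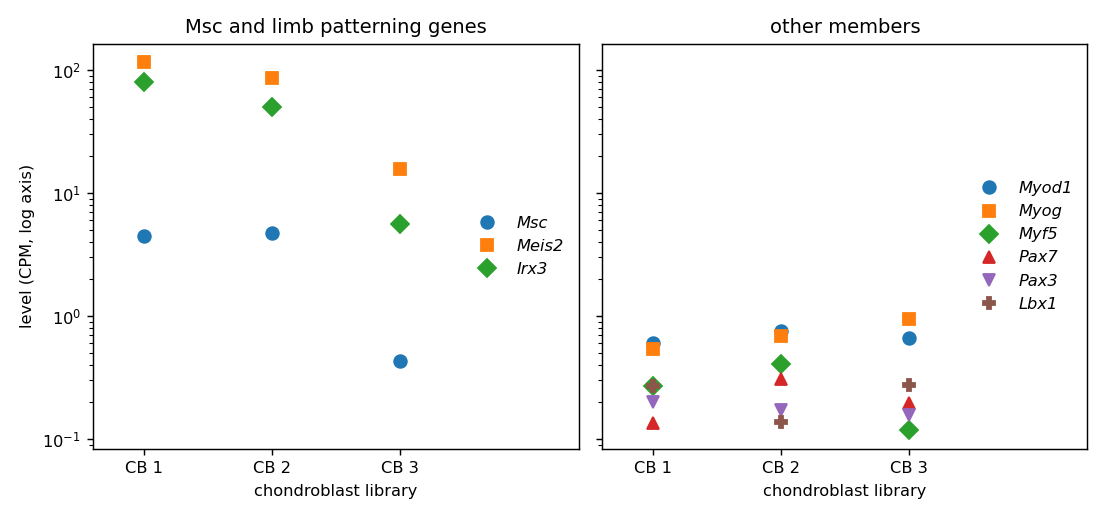
Level (CPM, log axis) of Msc, Meis2 and Irx3 (left) and of 6 other members (right) in the 3 chondroblast libraries. All 3 genes on the left are lowest in replicate 3, while Myod1 and Myog lie between 0.538 and 0.942 CPM in all 3 libraries.

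Genes that act upstream of the MRFs or in the migration of muscle precursors were high in the same cells. Of 22 such genes tested, S9-SCA-1+ cells had 16 called higher and 2 lower against the remaining 4 populations, with a median log2 fold change of 3.56 against -0.01 over all genes. Of all genes, 4.46% were called higher and 6.8% lower in this comparison. The receptor Met had 660 and 719 CPM in the S9-SCA-1+ libraries and no more than 8.96 CPM in any other (log2 fold change 7.29, adjusted p = 2.04e-16, edgeR). The chemokine receptor Cxcr4 (6.81, 5.14e-11) and the transcriptional cofactor Eya1 (6.54, 1.08e-11) had the next largest changes. In chondroblasts 10.6% of all genes were called higher and 1.36% lower. The median log2 fold change there was 1.25 for the 22 and 0.04 over all genes. Of the 22, 11 were called higher there than in the other 3 populations and none lower (12 without chondroblast replicate 3). Among them, Eya2 had 16.2 ± 0.893 CPM (n = 3) against 1.15 ± 0.291 in OCPs (log2 fold change 3.90, adjusted p = 3.61e-10, edgeR), and Vgll2, a cofactor of muscle gene transcription, 0.436 ± 0.171 CPM against 0.0391 ± 0.0406 in OCPs (2.92, 0.000442). Barx2 also rose in chondroblasts (4.06, 4.46e-07), but it was at most 0.0712 CPM in S9-SCA-1+ cells. In S9-JAG1+ cells, set against the other 3 populations with chondroblasts among them, 11 of the 22 were called lower and none higher, where 9.26% and 2.83% of all genes were. Eya2, at 11.3%, and Vgll2, at 11.0% of the S9-SCA-1+ level in chondroblasts, lay between Msc and Myog in this measure, while Met stood at 1.2% and Cxcr4 at 1.43%.

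The partners of the MRFs did not follow them. The E protein genes Tcf3, Tcf4 and Tcf12 were abundant in every population, with summed levels of 1515 to 1838 CPM per library, and none of the 3 was called in S9-SCA-1+ cells, chondroblasts or S9-JAG1+ cells. Their log2 fold changes in S9-SCA-1+ cells were 0.02, -0.27 and 0.26. Of 16 inhibitors of bHLH factors, S9-SCA-1+ cells had 2 called higher and 4 lower, with a median log2 fold change of -0.09 against -0.01 over all genes, of which 4.46% were called higher and 6.8% lower. Id4, whose product binds E proteins without binding DNA, had 0.560 and 1.35 CPM in S9-SCA-1+ cells and 20.4 ± 1.87 CPM (n = 3) in chondroblasts, the Notch target Heyl had 2.85 and 3.15 CPM in S9-SCA-1+ cells, and Snai2 fell by 1.94 (adjusted p = 3.63e-08, edgeR). In chondroblasts Id4, Heyl and Mdfic, an inhibitor of MyoD family proteins, were the 3 called higher, by 1.79, 1.57 and 1.33 on the log2 scale.

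Most genes of differentiated muscle were low. Of all genes, 4.46% were called higher and 6.8% lower in S9-SCA-1+ cells. Of 30 genes of the contractile apparatus, the neuromuscular junction and myoblast fusion, 20 could be tested, 9 were called higher and 3 lower in the S9-SCA-1+ population (8 and 2 of 22 without S9-SCA-1+ replicate 3), and Myh8, Tnnt2 and Cav3 had no reads there. The most abundant of those called higher were the calcium release channel gene Ryr1, at 40.5 and 44.9 CPM in S9-SCA-1+ cells and 12.8 to 23.5 CPM in the other libraries (log2 fold change 1.38, adjusted p = 1.66e-06, edgeR), and the intermediate filament gene Des, at 13.7 ± 1.82 CPM (n = 2) against 0.471 to 4.53 CPM (3.01, 9.55e-07). The largest changes were in some genes of the acetylcholine receptor complex: Chrnd had 2.24 ± 0.403 CPM (n = 2), Chrng 1.13 ± 0.584 and Rapsn, which clusters the receptor, 1.00 ± 0.361. The receptor subunit gene Chrna1 went the other way, at 0.389 ± 0.205 CPM (log2 fold change -1.92, adjusted p = 0.00126, edgeR). Myh3 (-1.53, 0.0202) and Tnnt3 (-1.51, 0.0163) were the other genes called lower in S9-SCA-1+ cells. In chondroblasts 6 of the 20 tested were called higher and 2 lower, against 10.6% and 1.36% of all genes. The fusion gene Mymk had 0.929 ± 0.137 CPM (n = 3) in chondroblasts and no more than 0.0356 CPM in S9-SCA-1+ cells, and cardiac actin Actc1 had 1.77 ± 0.539 CPM in chondroblasts and 1.15 ± 0.139 (n = 2) in S9-SCA-1+ cells. Chrnd and Chrng did not go with them, at 1.52% and 3.34% of their S9-SCA-1+ level in chondroblasts. Chrna1 was also lower in chondroblasts (log2 fold change -3.41, adjusted p = 2.36e-06, edgeR) and highest in S9-JAG1+ cells, at 6.77 ± 0.524 CPM. Des was the other gene called lower in chondroblasts (-1.74, adjusted p = 0.00125, edgeR), at 0.679 ± 0.331 CPM (n = 3).

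Some markers of other cell types also differed between these populations, and, beyond leaving out single libraries, their part in the results was not tested. Of all genes, 10.6% were called higher and 1.36% lower in chondroblasts, and 4.46% and 6.8% in S9-SCA-1+ cells. The counts in these short lists were not tested against those shares. Of 8 neural crest and glia genes, 5 were called higher in chondroblasts, with summed levels of 26.1 to 35.4 CPM against 17.0 to 28.0 in OCPs and 10.4 to 10.7 in S9-SCA-1+ cells, led by Erbb3 (13.7 ± 4.36 CPM, n = 3), and Sox10 was also present in OCPs (2.98 ± 1.07 CPM). Of 9 neural genes, 5 were tested and 2 called higher in chondroblasts (summed 17.8 to 21.5 CPM against 6.84 to 10.7 in the other libraries), with Stmn2 at 8.64 to 11.8 CPM and Neurog1 and Neurog2 at 0 in S9-SCA-1+ cells. Of the red blood cell genes, S9-SCA-1+ cells had 8 of 8 called higher, and 1 of 8 without replicate 3, while endothelial genes summed to 22.0 to 26.3 CPM there and 9.34 to 18.8 CPM elsewhere, with 1 of 8 called higher. In chondroblasts 3 of the 8 red blood cell genes were called higher, as were 4 of 11 connective tissue and tendon genes, 2 of 4 ectoderm genes (summed 19.7 to 22.7 CPM against 6.12 to 14.3 elsewhere), 1 of 4 pharyngeal and cardiac genes and 2 of 9 genes of lateral mesoderm and mesothelium, of which 3 were lower. Endothelial genes were called lower there for 2 of 8. Connective tissue and tendon genes were lower in S9-SCA-1+ cells for 7 of 11 tested, and genes of lateral mesoderm and mesothelium for 8 of 9. Of pharyngeal and cardiac genes 2 were called higher and 1 lower of 4 tested, of ectoderm genes 1 and 1 of 4, and the 1 leukocyte gene tested was not called. Of the most abundant genes of these lists in S9-SCA-1+ cells, the levels were 583 CPM (Hbb-y, from 40.7 and 1125 CPM), 111 (Col3a1), 20.2 (Hand2), 14.1 (Tbx18), 10.4 (Egfl7), 6.91 (Tubb3), 4.62 (Cd68) and 1.70 (Fgf8).

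The genes most like each member over the 14 libraries, by Pearson's r of log2 CPM, mostly shared the step between S9-SCA-1+ and other libraries. Lbx1 was among the 3 most like Pax3 (r = 0.971), beside Atp2b1 (0.971) and A2ml1 (0.967). Those most like Lbx1 were Ptprj (0.988), Nkain3 (0.982) and A2ml1 (0.982), and those most like Myf5 were Cxcr4 (0.980), A2ml1 (0.976) and Rbm24 (0.975). Myod1 and Myog shared their first, Ppp1r1a (0.985 and 0.984), which had 13.8 ± 0.600 CPM in S9-SCA-1+ cells, 2.77 ± 0.246 in chondroblasts and 1.33 ± 0.200 in OCPs. Next came Wnt16 (0.968) and Atp2a1 (0.962) for Myod1, and Sema6b (0.980) and Pls1 (0.978) for Myog. Pax7 was most like Iigp1 (0.981), Cpne8 (0.980) and Scn3a (0.976), and the genes like Msc included Lgi1 (0.960) and Cav1 (0.959). These values rest on the distance of 2 libraries from the other 12, and by rank only 2 of the 21 pairs were found again.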

How the data were processed

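RNA-seq counts of 14 libraries were used. According to the methods of the study, the authors aligned single-end reads of poly(A)+ RNA with STAR to mm10, kept 1 position per read, and counted with QuasR the reads that start in exons of RefSeq mRNAs. The deposited values are whole-number counts per gene without normalization, with Entrez identifiers and a length. Of 24454 identifiers, 24374 were matched to RefSeq symbols on GRCm38, and the other 80 held 0.358% of the counts. Promoter windows came from RefSeq (GRCm38.p6), and gene overlaps from GENCODE.

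Genes were kept with filterByExpr by population (15125), totals were scaled with TMM (factors 0.957 to 1.06), and a mean per population was fitted to all 14 libraries with edgeR 4.0.16 (quasi-likelihood F test) in R 4.3.3. Calls needed a Benjamini-Hochberg adjusted p of 0.1 or less and a log2 fold change of 1.2 or more in size. The study used the same limits, without stating how p was adjusted. Nothing in the labels ties libraries to separate embryos, so p-values measure the spread between these libraries. Members and gene lists were chosen with earlier results of these data known. Named are all members, the 3 genes most like each, and per list up to 3 called genes with the largest change. Named too are the E protein genes, the sort markers, Col2a1, Acan and the most abundant marker of each other cell type in S9-SCA-1+ cells. Erbb3, Sox10, Stmn2, Ryr1, Des, Meis2 and Irx3 were named after their values were seen. Some genes that this rule would name are not reported here. Tables and exact intervals were made with Python 3.11.15, scipy 1.17.1 and matplotlib 3.10.9. Alternatives were library totals or DESeq2 1.42.0 size factors, no filter, the DESeq2 test, the replicate number as a block, the 12 libraries without SCA-1+ cells and each library left out. The fit was tested on simulated data. Depth was 20316583 to 29162751 counts.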

Additional observations from a re-analysis of the deposited data

How the results depend on the processing

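The 7 members called in S9-SCA-1+ cells against the other 4 populations kept direction and call in all 133 combinations of member and alternative. The calls of Pax3, Pax7, Myod1, Myog and Msc in chondroblasts were kept in every alternative in which the gene was tested, and Myf5 was gained in 2 settings. Pax7 and Myf5 did not pass the filter in the 12 libraries without SCA-1+ cells, so they were not tested there. No result reversed. With the replicate number as a block, 1739 genes were called in S9-SCA-1+ cells and 1819 in chondroblasts, and no call of a member changed. Correlations of deviations between libraries with the same number ran from -0.181 to 0.308, and 4 of 26 were over 0.1. Between libraries with other numbers they ran from -0.312 to 0.413, and 6 of 52 were over 0.1. With so few libraries per population, these values cannot tell whether the numbers pair the libraries. Of the 21 pairs of a member and a like gene, 2 were shared with Spearman's rank correlation and 0 with the 12 libraries without SCA-1+ cells, a set chosen after seeing the data, and 16 to 18 when 1 S9-SCA-1+ library was left out. List counts without single libraries were also added after seeing the data. Members with up to 3 reads in a library cannot be told from absence, so the order of Pax7, Myf6 and Tcf21 among the E10.5 populations without SCA-1+ cells was not detectable at this depth.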
